A study of Mus musculus with 4 samples.

Results

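Inflammatory chemokines are small secreted or membrane-tethered proteins that draw leukocytes towards the cells that make them. Here 9 of their genes were examined in mesenchymal stem cells from mouse bone marrow, covering the CC chemokines Ccl2, Ccl7, Ccl5 and Ccl9, the CXC chemokines Cxcl1, Cxcl2, Cxcl5 and Cxcl16, and the CX3C chemokine Cx3cl1. The genes were fixed by symbol, and each was measured by 1 probe set whose only annotated symbol was that of the gene, so 9 of 41345 probe sets and 9 of 22180 named genes belong to the group. All 9 passed a filter for low values, which keeps the upper 60% of genes by mean level, at a lowest kept mean of 4.51 on the log2 scale, although Cxcl2 passed it narrowly, with a mean of 4.52.

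RNA came from Snail1-KO cells given TGF-b1 for 2 h, untreated Snail1-KO cells, Snail1-WT cells given TGF-b1 for 2 h and untreated Snail1-WT cells. Snail1, encoded by Snai1, is a zinc finger repressor of epithelial genes, and TGF-b1 is a cytokine that signals through SMAD proteins. Each of the 4 groups had 1 Affymetrix array, so no difference below has a replicate check and no test was made. The labels used here do not say how the Snail1-KO cells were made, whether they were 1 clone, or how many animals the cells came from.

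Values are log2 values made by the authors with RMA, so a difference of 1 is 2-fold. As a yardstick, each gene has a noise SD for the difference between 2 arrays, taken from the disagreement of the responses of both genotypes to TGF-b1 among the 500 genes nearest in level. That SD contains true differences between the responses. It leaves out whatever both arrays of a genotype share, including a difference between cultures that is unrelated to Snail1. In a bulk sample, more RNA per cell and more cells of a type that makes it cannot be told apart.

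The arrays carried the labelled contrasts. Snai1 measured 5.34 with TGF-b1 and 5.09 without in Snail1-KO cells, against 7.63 and 6.69 in Snail1-WT cells. The 4 measured TGF-b1 target genes examined, Ccn2, Skil, Pmepa1 and Smad7, were all at least 2-fold higher after TGF-b1 in both genotypes, with median differences of 3.19 in Snail1-KO and 2.56 in Snail1-WT cells. Ccn2 had 2 probe sets. Averaging them lowered its response from 3.82 to 2.09 in Snail1-KO cells and from 2.84 to 1.95 in Snail1-WT cells. The collagen gene Col1a1, abundant in stromal cells, measured 12.1 to 12.2 in Snail1-KO and 11.9 to 12.1 in Snail1-WT cells. Ptprc, a marker of all leukocytes, measured 3.78 and 3.49 in Snail1-KO cells with and without TGF-b1, against 3.42 and 3.15 in Snail1-WT cells, and the lower quartiles of all probe sets were 3.61 to 3.65.

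Chemokines are named for the spacing of cysteines near the N-terminus, and they act on G protein-coupled receptors of leukocytes. CCL2 and CCL7 attract monocytes through CCR2, CCL5 attracts T cells and monocytes, and mouse CCL9 acts through CCR1. CXCL1, CXCL2 and CXCL5 attract neutrophils through CXCR2. CXCL16 and CX3CL1 are made as transmembrane proteins that the sheddases ADAM10 and ADAM17 can release, and their receptors are CXCR6 and CX3CR1. Transcription of many of these genes is induced by NF-kB, and interferon also raises Ccl5.

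**Figure D1:**
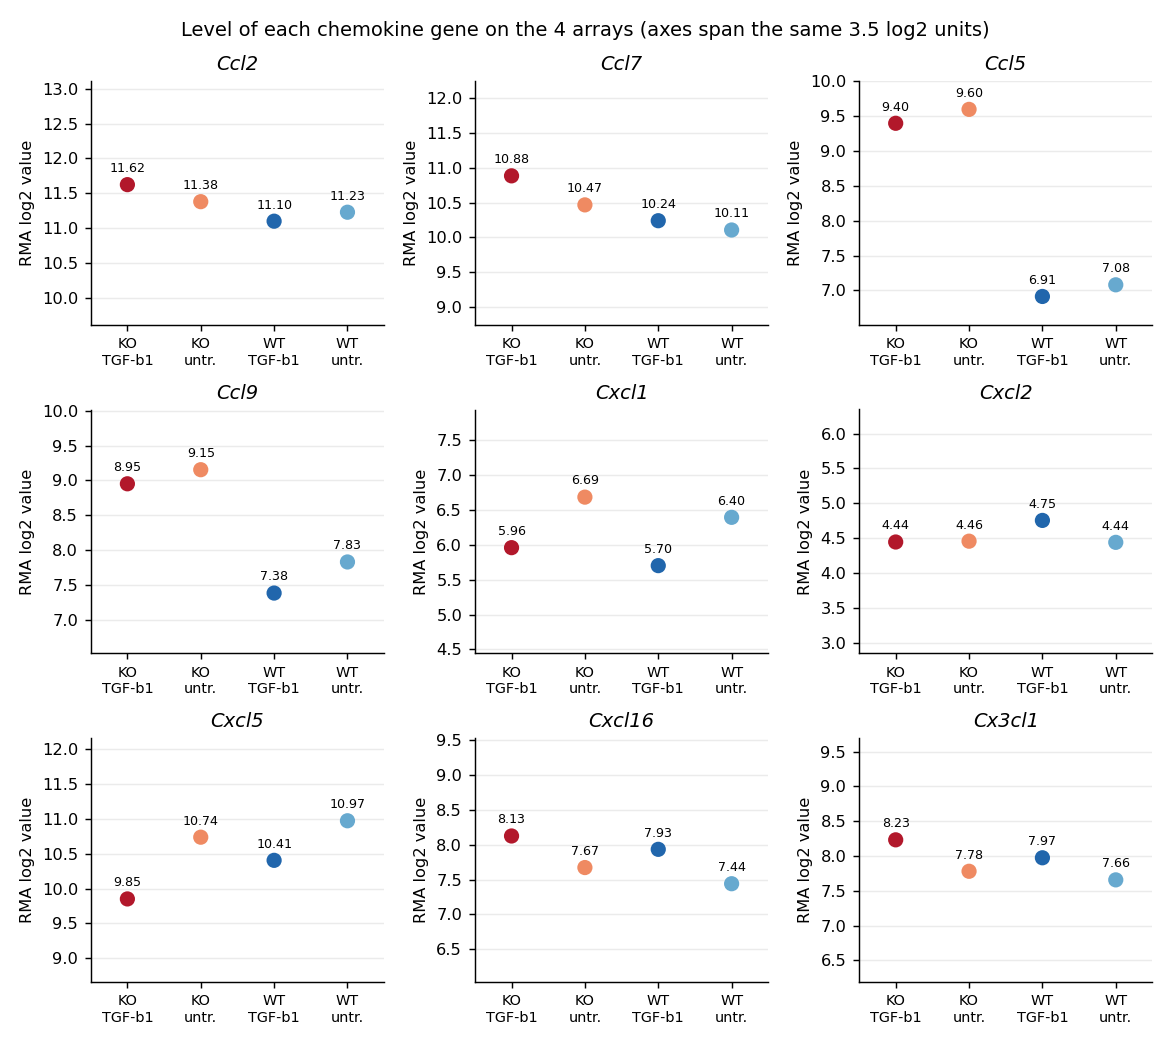
RMA log2 value (vertical axes, each spanning 3.5 log2 units) of 9 chemokine genes on the 4 arrays, 1 point per array. Ccl5 and Ccl9 were high on both Snail1-KO arrays, Cxcl1 and Cxcl5 were low on the TGF-b1 array of each genotype, and Cxcl16 and Cx3cl1 were high there.

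RefSeq promoter entries of build GRCm38.p6 were matched for 4 of the 9 genes, and those of 3 are shown: Ccl9, which differed by genotype, Cxcl1, which was lower after TGF-b1 in both genotypes, and its neighbour Cxcl2, which was near background. The other entry was that of Cx3cl1. The 250 bases before each gene start were read 5′ to 3′ on the gene's strand and searched on both strands for CAGGTG, an E-box that Snail1 can bind, for CAGACA, a SMAD motif, for an NF-kB motif of GGG and CC with 5 bases of any kind between them, and for an interferon response motif of GAAA and GAAA with 2 bases of any kind between. Capitals mark every match. The sequences lie at chr11:83578637-83578886 (minus strand) for Ccl9, chr5:90890995-90891244 (plus strand) for Cxcl1 and chr5:90903649-90903898 (plus strand) for Cxcl2.
Ccl9: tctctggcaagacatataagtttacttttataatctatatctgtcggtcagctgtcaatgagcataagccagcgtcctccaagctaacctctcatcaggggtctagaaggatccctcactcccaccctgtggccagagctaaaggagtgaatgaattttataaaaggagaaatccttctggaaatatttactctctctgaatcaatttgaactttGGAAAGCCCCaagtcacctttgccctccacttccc
Cxcl1: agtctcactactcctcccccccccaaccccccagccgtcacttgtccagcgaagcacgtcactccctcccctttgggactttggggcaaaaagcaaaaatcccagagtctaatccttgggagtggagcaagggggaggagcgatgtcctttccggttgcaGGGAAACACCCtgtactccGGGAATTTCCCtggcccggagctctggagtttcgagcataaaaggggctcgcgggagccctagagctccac
Cxcl2: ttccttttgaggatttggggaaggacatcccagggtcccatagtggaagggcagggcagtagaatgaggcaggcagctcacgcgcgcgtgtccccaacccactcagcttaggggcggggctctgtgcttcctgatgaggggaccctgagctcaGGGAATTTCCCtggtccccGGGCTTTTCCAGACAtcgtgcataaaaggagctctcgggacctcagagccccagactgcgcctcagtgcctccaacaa

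The Cxcl1 and Cxcl2 windows held the same 10 bases, GGGAATTTCC, at positions -71 to -62 of Cxcl1 and -97 to -88 of Cxcl2, counted back from the base before the gene start. Matches to the NF-kB motif on opposite strands overlapped there. Cxcl1 held another overlapping pair, at -90 to -81 on the plus strand and -89 to -80 on the minus strand, and Cxcl2 another single match at -78 to -69. In Ccl9 the motif matched once, on the minus strand, at -35 to -26. The SMAD motif matched in Cxcl2 alone among the 4 windows, at -69 to -64, sharing its first base with an NF-kB match, and the E-box and the interferon motif matched in none of the 4. The Cx3cl1 window held no match to any of the 4 motifs. Among 32851 promoter windows of the same length, 45.8% held the NF-kB motif, 17.2% the E-box, 17.1% the SMAD motif and 2.98% the interferon motif. A match describes letters and not binding.

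Whether the loss of Snail1 went with a different chemokine profile was addressed by subtracting each Snail1-WT array from the Snail1-KO array of the same treatment. Ccl5 and Ccl9 were more than 2-fold higher in Snail1-KO cells, with and without TGF-b1, and the other 7 genes were less than 2-fold apart. With TGF-b1, 2 of 9 genes were thus at least 2-fold higher, where 0.726% of all 22180 genes were, and 0 of 9 were at least 2-fold lower, where 0.446% were. Without TGF-b1 the counts were again 2 and 0 of 9, where 0.6% of all genes were at least 2-fold higher and 0.528% lower. The members were chosen with earlier results known, among them that Ccl5 was higher without Snail1. These counts are therefore no independent evidence of an excess among chemokine genes. The median difference of the 9 genes was 0.26 with and 0.23 without TGF-b1, beside -0.02 and 0.01 for all genes. The pair of treated arrays and the pair of untreated arrays share no array. A difference between cultures that is unrelated to Snail1 could still appear in both pairs.

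Ccl5 (probe set 17266946) measured 9.40 with TGF-b1 and 9.60 without in Snail1-KO cells, against 6.91 and 7.08 in Snail1-WT cells. Both Snail1-KO arrays lay far above both Snail1-WT arrays. The difference was 2.49 with TGF-b1, or 5.60-fold, and 2.52 without, or 5.73-fold, beside a noise SD of 0.10. Ranked by the smaller of both differences, Ccl5 had rank 5 among the 22180 genes, 79 of which were at least 2-fold higher in both pairs. Because the members were chosen with earlier results of these data known, this rank and that of Ccl9 below are no independent evidence. The genes whose profiles over the 4 arrays, centred on each gene's mean, lay nearest to that of Ccl5 were the osteomodulin gene Omd (Euclidean distance 0.31), the lipocalin gene Apod (0.38) and the carboxylesterase gene Ces1a (0.50).

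Ccl9 (probe set 17266952) measured 8.95 with TGF-b1 and 9.15 without in Snail1-KO cells, against 7.38 and 7.83 in Snail1-WT cells. Its genotypes did not overlap either, and the gap was smaller than that of Ccl5. How many of all genes show no such overlap was not counted. The difference was 1.57 with TGF-b1, or 2.97-fold, and 1.32 without, or 2.50-fold, beside a noise SD of 0.11. Ccl9 had rank 28 by the smaller difference. Its nearest profiles were those of Mfsd6 (distance 0.08), Afap1l2 (0.10) and the netrin receptor gene Unc5c (0.11). The nearest member to Ccl9 was Ccl5, at a distance of 1.07, with Ccl7 almost as near at 1.12.

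The monocyte chemokine genes Ccl2 and Ccl7 differed far less by genotype. Ccl2 (probe set 17254041) measured 11.62 with TGF-b1 and 11.38 without in Snail1-KO cells, against 11.10 and 11.23 in Snail1-WT cells. Ccl7 (probe set 17254047) measured 10.88 and 10.47 in Snail1-KO cells, against 10.24 and 10.11 in Snail1-WT cells. Both genes were higher in Snail1-KO cells with and without TGF-b1, as were 6908 of all 22180 genes. As for Ccl5 and Ccl9, the values of the genotypes did not overlap for Ccl2 or for Ccl7. The differences with TGF-b1 were 0.52 for Ccl2 and 0.64 for Ccl7, and without it 0.15 and 0.36, beside a noise SD of 0.08 for each. Each was the other's nearest member by profile, at a distance of 0.28.

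**Figure D2:**
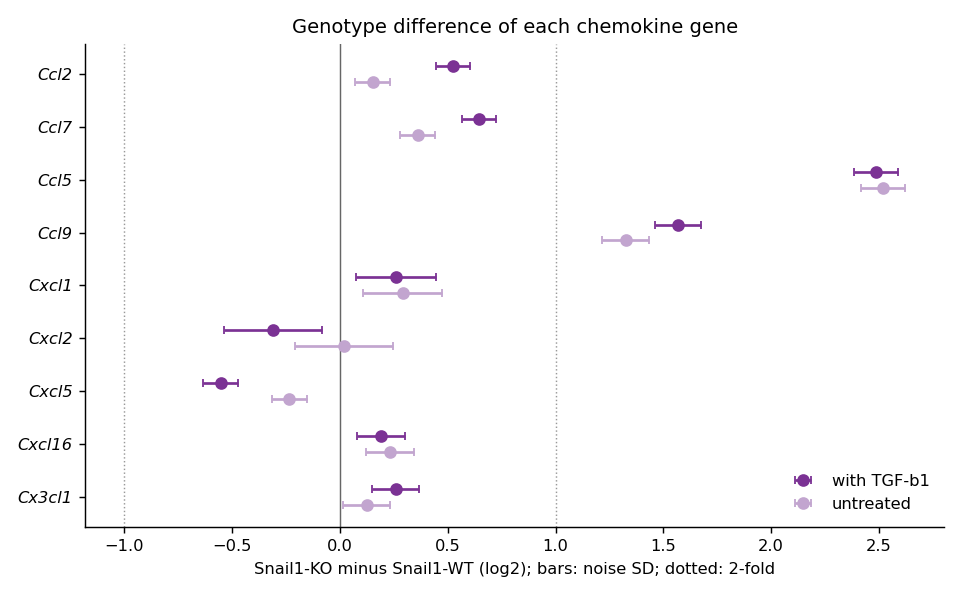
Snail1-KO minus Snail1-WT difference of the log2 value (horizontal axis) for 9 chemokine genes, with TGF-b1 and untreated, 1 point per pair of arrays. Bars are 1 noise SD to either side, from 0.08 for Ccl2 to 0.23 for Cxcl2, and dotted lines mark 2-fold; Ccl5 and Ccl9 lie beyond the upper line in both pairs.

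Among the neutrophil chemokine genes no genotype difference reached 2-fold. Cxcl5 (probe set 17438955) measured 9.85 with TGF-b1 and 10.74 without in Snail1-KO cells, against 10.41 and 10.97 in Snail1-WT cells, so that it differed by -0.55 with and -0.24 without TGF-b1, beside a noise SD of 0.08. No other member was lower in Snail1-KO cells both with and without TGF-b1. Cxcl1 (probe set 17438987) measured 5.96 with TGF-b1 and 6.69 without in Snail1-KO cells, against 5.70 and 6.40 in Snail1-WT cells. It differed by 0.26 and 0.29, beside a noise SD of 0.19, and its genotypes overlapped.

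Cxcl2 (probe set 17438995) measured 4.44 with TGF-b1 and 4.46 without in Snail1-KO cells, against 4.75 and 4.44 in Snail1-WT cells. The medians of all probe sets were 4.58 to 4.63, so 3 of the 4 values lay below the median of their array. Its differences, -0.31 with and 0.02 without TGF-b1, had opposite signs, beside a noise SD of 0.23.

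The transmembrane chemokine genes were slightly higher in Snail1-KO cells. Cxcl16 (probe set 17265268) measured 8.13 with TGF-b1 and 7.67 without in Snail1-KO cells, against 7.93 and 7.44 in Snail1-WT cells. Cx3cl1 (probe set 17504130) measured 8.23 and 7.78 in Snail1-KO cells, against 7.97 and 7.66 in Snail1-WT cells. The genotype differences were 0.19 and 0.23 for Cxcl16 and 0.26 and 0.12 for Cx3cl1, each beside a noise SD of 0.11, and for both genes the values of the genotypes overlapped.

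Whether TGF-b1 moved these genes within 2 h was addressed by subtracting the untreated array of each genotype from its treated array. Cxcl1 and Cxcl5 were lower after TGF-b1 in both genotypes, Cxcl16 and Cx3cl1 were higher, and Ccl5 and Ccl9 were lower by less. None of the 9 genes reached 2-fold. In Snail1-KO cells 0 of 9 were at least 2-fold higher, where 0.681% of all genes were, and 0 of 9 lower, where 0.234% were. In Snail1-WT cells the counts were also 0 and 0, where 0.478% of all genes were at least 2-fold higher and 0.216% lower. The median response of the 9 genes was -0.01 in Snail1-KO and -0.13 in Snail1-WT cells, beside -0.02 and -0.01 for all genes. The responses of the genotypes share no array.

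Cxcl5 showed the largest response among the 9 genes in Snail1-KO cells, at -0.89, and differed by -0.57 in Snail1-WT cells. Cxcl1 responded by -0.73 in Snail1-KO and -0.69 in Snail1-WT cells. On the linear scale these differences are 1.85-fold and 1.48-fold lower for Cxcl5 and 1.65-fold and 1.62-fold lower for Cxcl1. By the smaller of both responses Cxcl1 had rank 72 and Cxcl5 rank 123 among genes lower in both genotypes, of which there were 7247, and 22 of these were at least 2-fold lower in both. The profiles nearest to that of Cxcl5 were those of the stanniocalcin gene Stc2 (distance 0.17), Zfp975 (0.17) and Zfhx4 (0.17). The third neutrophil chemokine gene, Cxcl2, responded by -0.01 in Snail1-KO and 0.31 in Snail1-WT cells.

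The transmembrane chemokine genes moved alike. Cxcl16 responded by 0.45 in Snail1-KO and 0.49 in Snail1-WT cells, and Cx3cl1 by 0.45 and 0.32. Cxcl16 and Cx3cl1, which lie on different chromosomes, had the smallest distance of any pair of the 9 genes, 0.13. By the smaller of both responses Cxcl16 had rank 417 and Cx3cl1 rank 770 among the 6214 genes that were higher in both genotypes.

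**Figure D3:**
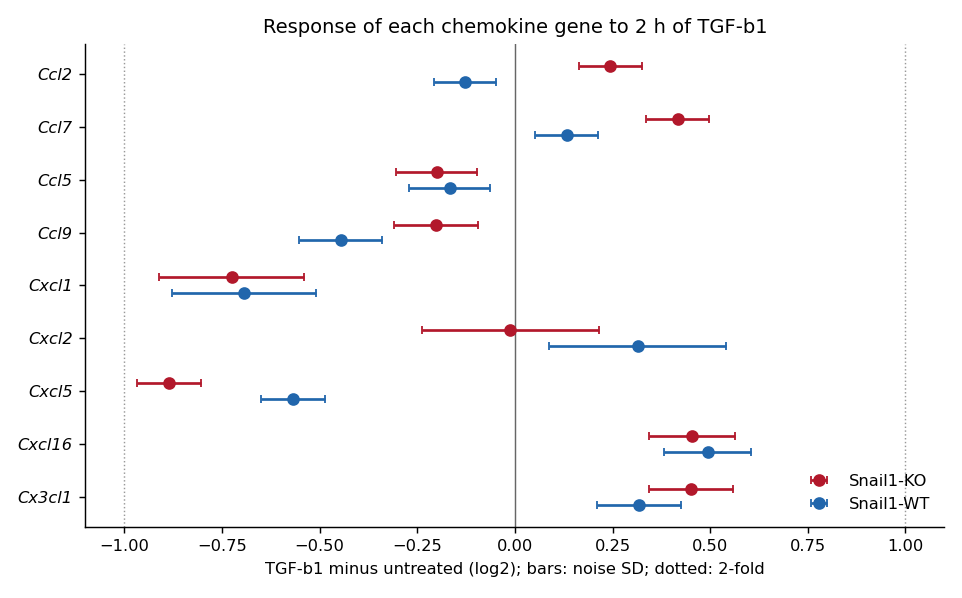
TGF-b1 minus untreated difference of the log2 value (horizontal axis) for 9 chemokine genes in Snail1-KO and Snail1-WT cells, 1 point per pair of arrays. Bars are 1 noise SD to either side and dotted lines mark 2-fold, which no gene reached; Cxcl5 in Snail1-KO cells came closest at -0.89.

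The CC chemokine genes responded in differing directions. Ccl5 responded by -0.20 in Snail1-KO and -0.17 in Snail1-WT cells, and Ccl9 by -0.20 and -0.45. Ccl7 responded by 0.42 in Snail1-KO and 0.13 in Snail1-WT cells, and Ccl2 by 0.24 and -0.13. Subtracting the Snail1-WT response from the Snail1-KO response gave values from -0.33 for Cxcl2 to 0.37 for Ccl2. That difference was -0.03 for Ccl5 and -0.32 for Cxcl5. None of the 9 genes reached 2-fold in it, where 0.888% of all genes did in either direction, 89 higher and 108 lower, or 110 and 85 with the arrays centred on their medians.

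Most of these genes lie in clusters, and the gene order of GRCm38.p6 was used to describe their neighbours. On chromosome 11, Ccl5 and Ccl9 were adjacent among the measured genes. The next measured gene beyond Ccl9, the clone-named transcript E230016K23Rik, measured 6.73 with TGF-b1 and 7.12 without in Snail1-KO cells, against 5.61 and 5.91 in Snail1-WT cells, a difference of 1.12 and 1.22. This transcript and the other neighbours were looked at after the values of the members were seen. Ccl6 and Ccl3, which follow it and failed the filter on low values, differed by 0.20 and 0.52 and by -0.44 and 0.10. On the other side of Ccl5, Heatr9 differed by 0.06 and 0.19 and Taf15, an RNA-binding protein gene, by 0.09 and 0.33. The differences of at least 2-fold among these 8 genes were therefore those of Ccl5, Ccl9 and E230016K23Rik.

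A second cluster of chromosome 11 holds Ccl2, Ccl7, Ccl11, Ccl12, Ccl8 and Ccl1. Ccl8, another CC chemokine gene, measured 4.69 with TGF-b1 and 5.002 without in Snail1-KO cells, against 3.70 and 3.38 in Snail1-WT cells, so that it differed by 0.99 and 1.62. It failed the filter, and the size of its difference is uncertain. The eosinophil chemokine gene Ccl11 differed by -0.05 and 0.05 and Ccl12, which failed the filter, by 0.21 and -0.03. On chromosome 5, Cxcl5, Ppbp, Pf4, Cxcl3, Cxcl15, Cxcl1 and Cxcl2 follow each other among the measured genes, and between Cxcl5 and Cxcl1 all 4 genes failed the filter. Beyond Cxcl2, the EGF receptor ligand gene Ereg differed by -0.87 and -0.999.

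**Figure D4:**
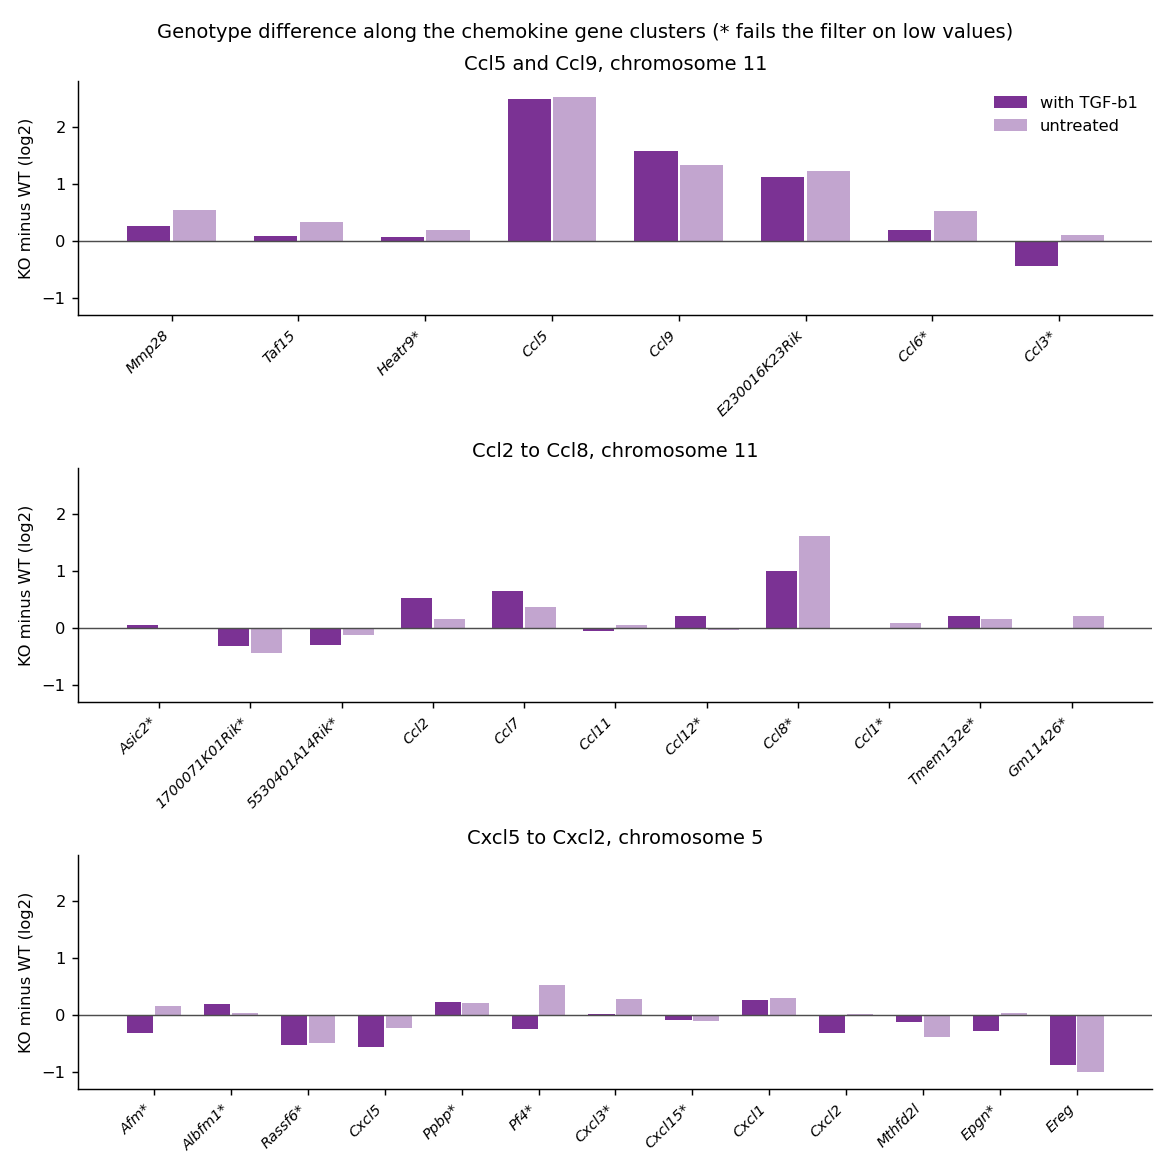
Snail1-KO minus Snail1-WT difference of the log2 value (vertical axes) for measured genes in their chromosomal order, with TGF-b1 and untreated, with 3 measured genes on either side of each stretch. An asterisk marks genes that fail the filter on low values; in the upper panel Ccl5, Ccl9 and E230016K23Rik lie above 1 in both pairs.

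Of 26 other chemokine genes 25 were measured and 9 passed the filter. With TGF-b1, 0 of 25 were at least 2-fold higher or lower in Snail1-KO cells, with a median difference of 0.02, although Ccl8 passed 2-fold after median centring, at 1.04, and after cyclic loess, at 1.06. Without it 2 were higher, Ccl8 and the interferon-induced chemokine gene Cxcl10, and 0 were lower, with a median of 0.10. Cxcl10 measured 6.51 with TGF-b1 and 6.75 without in Snail1-KO cells, against 5.69 and 5.73 in Snail1-WT cells, so that it differed by 0.82 and 1.02. Cxcl14, a chemokine gene that passed the filter and just missed 2-fold, measured 5.66 with TGF-b1 and 5.55 without in Snail1-KO cells, against 6.58 and 6.48 in Snail1-WT cells, so that it differed by -0.92 and -0.93. No gene of this list responded to TGF-b1 by 2-fold in either genotype.

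Of 18 chemokine receptor genes 17 were measured and 4 passed the filter. The receptors of the neutrophil and monocyte chemokines were low on every array: Cxcr2 measured 4.28 and 4.26 with and without TGF-b1 in Snail1-KO cells, against 4.28 and 4.17 in Snail1-WT cells. Ccr2 lay between 3.61 and 3.62 in Snail1-KO and between 3.55 and 3.58 in Snail1-WT cells. Ccr1 measured 3.21 and 3.29 in Snail1-KO cells, against 3.53 and 3.28 in Snail1-WT cells. Cx3cr1, the CX3CL1 receptor gene, lay between 5.32 and 5.44 in Snail1-KO and between 5.31 and 5.36 in Snail1-WT cells.

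Cxcr6, the receptor gene of the ligand CXCL16, was the exception. It measured 6.03 with TGF-b1 and 3.33 without in Snail1-KO cells, against 4.84 and 2.93 in Snail1-WT cells. The treated arrays of both genotypes lay above both untreated ones. Its response was 2.70 in Snail1-KO and 1.91 in Snail1-WT cells, beside a noise SD of 0.23, and its genotype difference was 1.19 with and 0.40 without TGF-b1. Both untreated values lay below the lower quartile of all probe sets, so the sizes are uncertain. Cxcr6 lies within the span of Fyco1 in GRCm38.p6, and Fyco1, an autophagy adaptor gene, responded by 0.32 in Snail1-KO and 0.18 in Snail1-WT cells.

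Genes that clear or release chemokines differed by less than 2-fold throughout. All 12 were measured. Their genotype differences ranged from -0.62 to 0.69 with and from -0.63 to 0.36 without TGF-b1, and their responses from -0.58 to 0.77 in Snail1-KO and from -0.43 to 0.66 in Snail1-WT cells. The sheddase genes of CXCL16 and CX3CL1, Adam10 and Adam17, measured 9.30 and 7.99 with TGF-b1 and 9.53 and 8.15 without in Snail1-KO cells, against 9.21 and 7.72 with and 9.17 and 7.96 without in Snail1-WT cells. The scavenger receptor gene Ackr3 responded by 0.77 in Snail1-KO and 0.66 in Snail1-WT cells.

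Regulators known to act on chemokine genes were described in the same way. Of 20 measured NF-kB pathway genes, 0 were at least 2-fold higher in Snail1-KO cells in either pair. The inhibitor of apoptosis gene Birc2, at -0.92 with and -1.15 without TGF-b1, was 2-fold lower without it. The highest differences of that list were those of the receptor gene Tlr3, at 0.92 with and 0.85 without TGF-b1. Tlr4 differed by 0.58 and 0.64. Of the 20 genes, 10 were above 0 and 10 below with TGF-b1, and 11 and 9 without it. The median genotype difference of that list was 0.04 with and 0.06 without TGF-b1. The feedback inhibitor gene Tnfaip3 responded by 0.91 in Snail1-KO and 0.36 in Snail1-WT cells, and Nfkbiz by 0.70 and 0.53. The receptor genes Tlr4 and Tlr3 responded the other way, by -0.76 and -0.70 and by -0.49 and -0.55. Responses below 0 were found for 13 of the 20 genes in Snail1-KO and for 12 in Snail1-WT cells, with median responses of -0.06 and -0.05.

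Of 13 measured interferon regulators, 2 were at least 2-fold higher in Snail1-KO cells with TGF-b1 and 1 without, and 0 were 2-fold lower. Stat2, a subunit of the interferon-activated factor ISGF3, differed by 1.14 with and 0.88 without TGF-b1, its partner gene Irf9 by 0.90 and 1.03, and Ddx58, encoding the RNA sensor RIG-I, by 1.03 and 0.79. The list's median was 0.09 with and 0.13 without TGF-b1. Among 9 genes linked to the decay or stability of chemokine mRNA, the phosphatase gene Dusp1 responded by -1.26 in Snail1-KO and -1.51 in Snail1-WT cells. No other reached 2-fold in any of the 4 comparisons. Zfp36, encoding the decay factor tristetraprolin, responded by 0.75 in Snail1-KO and 0.28 in Snail1-WT cells. Its paralogs went the other way, Zfp36l1 by -0.50 and -0.31 and Zfp36l2 by -0.51 and -0.38. The median genotype difference of this mixed list was -0.23 with and -0.27 without TGF-b1, with 5 and 7 of 9 lower in Snail1-KO cells.

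Leukocytes make several of these chemokines, so their markers are given beside the members. Of 18 leukocyte markers 17 were measured, 5 passed the filter and 0 were at least 2-fold apart between genotypes in either pair. Their summed level, on the log2 scale, was 8.59 with TGF-b1 and 8.74 without in Snail1-KO cells, against 8.60 and 8.61 in Snail1-WT cells. The macrophage gene Cd68 measured 6.05 and 6.23 in Snail1-KO cells, against 6.09 and 6.18 in Snail1-WT cells. Adgre1 measured 3.47 and 3.77 in Snail1-KO cells, against 3.70 and 3.41 in Snail1-WT cells. Other myeloid markers differed in both directions. Cd14 differed by 0.59 with and 0.42 without TGF-b1, and Lyz2, which failed the filter, by 0.71 and 0.54. Csf1r, which passed the filter, went the other way, by -0.55 with and -0.12 without TGF-b1. Over the 17 markers, 6 were above 0 with TGF-b1 and 11 without it, with medians of -0.13 and 0.08. No marker is at 0 on an RMA scale, and the part of such cells in the differences of Ccl5 and Ccl9 was not tested. The summed level of 10 endothelial markers was 7.65 and 7.66 in Snail1-KO cells, against 7.67 and 7.69 in Snail1-WT cells, and the endothelial genes Pecam1 and Cdh5 lay between 4.31 and 4.87 on the 4 arrays. Of 14 measured marrow stromal markers only Cd200 was 2-fold apart between genotypes, at 1.90 with and 0.35 without TGF-b1. Its mean of 4.55 lay close to the lowest kept mean. It measured 5.85 with TGF-b1 and 4.37 without in Snail1-KO cells, against 3.95 and 4.02 in Snail1-WT cells. Thy1 differed by -0.48 with and -0.24 without TGF-b1. Over the 14 stromal markers, 7 were above 0 and 7 below with TGF-b1, and 6 and 8 without it.

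**Figure D5:**
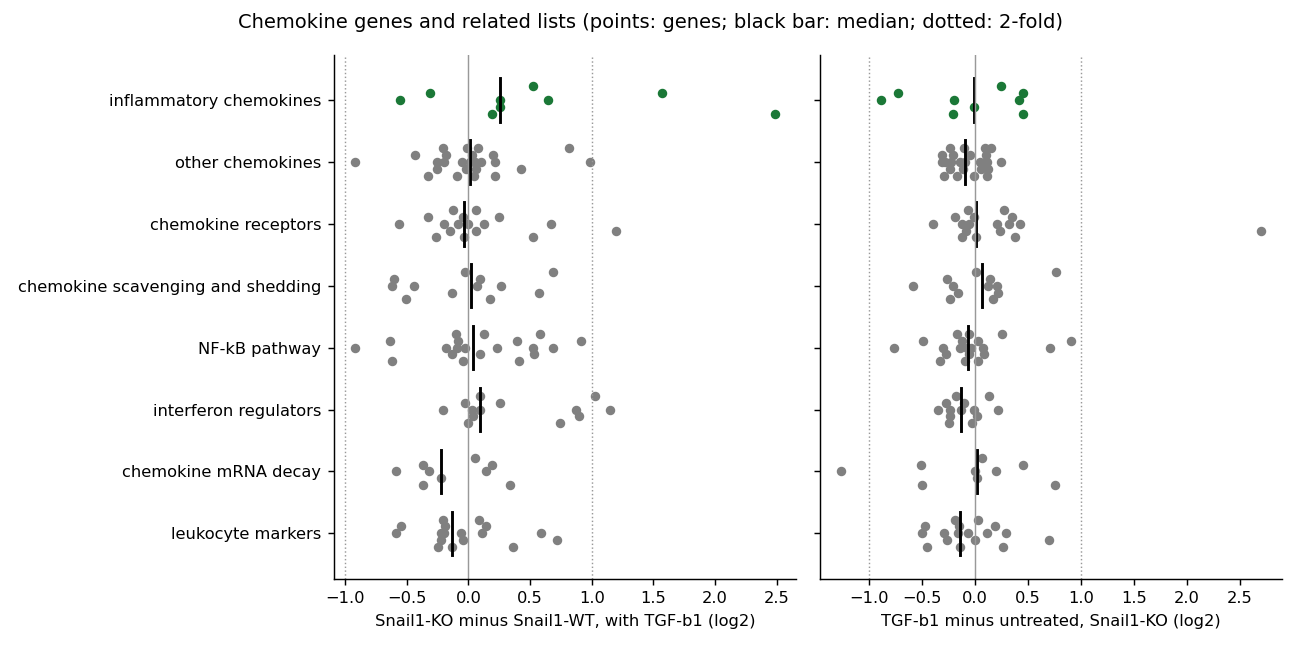
Log2 difference of every measured gene in 8 lists, on the left Snail1-KO minus Snail1-WT with TGF-b1 and on the right TGF-b1 minus untreated in Snail1-KO cells, with the list median as a black bar. Among the inflammatory chemokines Ccl5 and Ccl9 lie beyond 2-fold on the left and none on the right, where Cxcr6 is the receptor gene at 2.70.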

How the data were processed

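Biotin-labelled RNA of mouse marrow stem cells was hybridised to 4 Affymetrix arrays, after labelling with the WT PLUS kit per the labels' protocols. The authors deposited log2 values from RMA, run in R version 3.1.1 per the submitters' processing notes. RMA equalises the distributions of the arrays, so a shift shared by most genes would be removed. The build behind the probe annotation was not given in the sources used here. The number of arrays limits the precision.

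Groups came from the sample titles. Of 41345 probe sets, 23521 had 1 platform symbol, 1814 several and 16010 none here. For each of 22180 genes the probe set of highest mean was used. With 1 array per group, differences of log2 values were taken, a 2-fold difference was counted, and the share of all genes past it is given. The noise SD is the scaled median absolute deviation of the difference of responses over 500 genes of like level, divided by the square root of 2. The calculation was tested on simulated data. Members, lists and tests were chosen with earlier results of these data known. Named were the 9 members, Snai1, receptors and markers, up to 6 list genes at least 2-fold apart in any comparison, and the 3 nearest profiles of members whose range was at least 1. Neighbouring genes, Fyco1, Cxcl14, Cd14, Lyz2, Tlr3, Tlr4, Tnfaip3, Nfkbiz, Zfp36 and its paralogs, Ackr3, Adam10 and Adam17 were added after their values were seen. Alternatives were a 1.5-fold threshold, filters keeping 60% or 40% of genes, median centring, cyclic loess (limma 3.58.1 in R 4.3.3) and the mean of all probe sets. The remaining steps ran in Python 3.11.15 (numpy 2.4.6, pandas 2.3.3, matplotlib 3.10.9).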

Additional observations from a re-analysis of the deposited data

Results flagged for a closer look

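Ccl2 differed in opposite directions after TGF-b1, by 0.24 in Snail1-KO cells and by -0.13 in Snail1-WT cells. Cxcl2 did so too, at -0.012 and 0.31, although its response in Snail1-KO cells was 0.0011 after median centring and 0.017 after cyclic loess, and its genotype difference was -0.31 with and 0.017 without TGF-b1. Each group was 1 array, and the difference between the genotypes or treatments was not tested. For Cxcl2 the difference of the responses, -0.33, was 1.02 times the noise SD of a difference between responses, and for Ccl2 the difference, 0.37, was 3.31 times it.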

How the results depend on the processing

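With a 1.5-fold threshold, 2 of the 9 members (Cxcl1 and Cxcl5) had lower values in Snail1-KO cells after TGF-b1 and 1 in Snail1-WT cells (Cxcl1), where none was at 2-fold. Members higher in Snail1-KO than in Snail1-WT cells with TGF-b1 numbered 3 at 1.5-fold, with Ccl7 added at 0.64, against 2 at 2-fold. At 1.5-fold 4.06% of all genes were higher in that pair. After TGF-b1, 2.26% of all genes were lower in Snail1-KO and 1.86% in Snail1-WT cells at that threshold. The other counts of members did not change under any alternative that bears on them. The largest shift of a member's value was 0.064 with cyclic loess and 0.0501 with median centring, and the mean of all probe sets changed none, since each member has 1. At 1.5-fold the genes higher and lower numbered 900 and 644 (genotype with TGF-b1), 772 and 587 (genotype without), 658 and 501 (response of Snail1-KO cells), 511 and 412 (response of Snail1-WT cells) and 710 and 898 (difference of responses), against 161 and 99, 133 and 117, 151 and 52, 106 and 48, and 89 and 108 at 2-fold. Over the 40% of genes with the highest mean, the 2-fold counts were 93 and 62, 74 and 71, 115 and 30, and 83 and 25 in the first 4 of these. No replicate could be left out. No paired analysis was possible because the labels number no replicates and each group had 1 array. An additive fit of genotype and treatment over the 4 arrays, which would leave 1 residual degree of freedom, was not run. The array count and the closeness of Cxcl2, Ccl8 and Cxcr6 to background limit these values.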
